A study of Mus musculus with 10 samples.

Results

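Mitochondrial fatty acid oxidation was followed here through 10 nuclear genes of mouse oocytes, namely Cpt1a, Cpt2, Acadm, Acadl, Acadvl, Acads, Hadha, Hadhb, Echs1 and Decr1, taken by gene symbol from a deposited table of 18493 genes. All 10 symbols were found once each, and 8 of the genes had enough reads to be tested. The oocytes came from the ovary and fell into 3 groups by their titles: spermidine (n = 4 libraries), which the labels mark as a rescue, aged (n = 3), which they mark as a treatment, and young (n = 3), marked as the control. Spermidine is a polyamine, and the series asks how transcript levels in the young, the aged and the spermidine-rescued oocytes compare. Strain, the age of the animals, the dose and route of spermidine, and whether a library stands for a single oocyte or a pool, are not given in the sources used here. Nothing says that the libraries came from separate animals, so the p-values reflect library-to-library spread, some or all of which may be technical.

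Long-chain fatty acids enter mitochondria through the carnitine shuttle. CPT1 on the outer membrane makes acylcarnitines, a carrier takes them across the inner membrane, and CPT2 turns them back into acyl-CoA. Each turn of beta oxidation then starts with an acyl-CoA dehydrogenase chosen by chain length, which hands its electrons to the electron transfer flavoprotein, and goes on through a hydratase, a hydroxyacyl-CoA dehydrogenase and a thiolase. For long chains the mitochondrial trifunctional protein, built from the HADHA and HADHB subunits, carries out these later steps. Mouse oocytes hold lipid droplets and use fatty acid oxidation during maturation.

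Hadha and Hadhb lie head to head on mouse chromosome 5. Between their annotated starts, from RefSeq on build GRCm38.p6, lie 272 bases, shown because aged oocytes held the highest values of one gene of the pair and the lowest of the other. It lies at chr5:30154981-30155252 and is written on the Hadhb strand, so that Hadha is read leftwards from its left end and Hadhb rightwards from its right end. Capitals mark the letters GGGCGG, the GC box.

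Hadha-Hadhb: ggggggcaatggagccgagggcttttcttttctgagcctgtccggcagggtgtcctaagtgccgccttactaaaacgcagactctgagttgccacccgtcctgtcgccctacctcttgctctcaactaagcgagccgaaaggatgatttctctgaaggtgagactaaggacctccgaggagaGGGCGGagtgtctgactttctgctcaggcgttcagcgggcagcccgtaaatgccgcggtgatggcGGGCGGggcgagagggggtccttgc

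The stretch holds 2 GC boxes, 0 CCAAT boxes (CCAAT) and 0 TATA boxes (TATAAA), counted on both strands. RefSeq promoter windows of 300 bases, from 250 before to 50 after the start, were found for 9 of the 10 genes, and those of Hadha and Hadhb share 228 bases. A GC box was present in 7 of the 9 windows, against 35.6% of 32817 mouse promoter windows. The nuclear receptor hexamer AGGTCA was present in the windows of Cpt1a, Acadm, Acadvl and Echs1, against 16.3% of all windows. CCAAT was present in the window of Cpt1a and in 37.4% of all windows. TATAAA, the estrogen-related receptor element TCAAGGTCA, which contains AGGTCA, and the NRF1 palindrome were found in 0 of the 9 windows, against 13.6%, 0.424% and 0.966% of all windows. The build is not the mm9 build named in the submitters' processing notes, so these positions belong to the annotation and not to the deposited counts.

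Library totals lay between 24222185 and 28730790 counts. Markers of oocytes such as Gdf9, Bmp15 and Zp3 were present in every library, and 11 of them summed to 23200 to 38400 CPM in the spermidine libraries, 30100 to 36900 CPM in the aged libraries and 30800 to 33800 CPM in the young libraries. CPM is the count scaled to a common library size and is relative to library totals scaled by the trimmed mean of M values (TMM). Granulosa and cumulus markers (11 genes) summed to 20.4 to 25.2 CPM with spermidine, 18.9 to 22.1 CPM in aged and 18.5 to 22 CPM in young oocytes, with Foxl2, Amh, Has2 and Ptx3 averaging at most 0.0508 CPM, while Cyp19a1 at 11.6 CPM, Nr5a2 at 6.41 CPM, Inha at 1.63 CPM and Fshr at 1.05 CPM carried most of the sum. Of 4 tested granulosa and cumulus genes, 2 were called higher in aged than in young oocytes, where 9.71% of all tested genes were. In spermidine against aged oocytes 0 were called, and 1 was higher in spermidine than in young oocytes, where 3.44% of all tested genes were. Of 11 tested oocyte markers, 1 was called higher and 1 lower in aged against young oocytes, where 17.8% of all genes were called. In spermidine against aged oocytes 1 was lower, where 2.44% were, and 0 were called in spermidine against young oocytes. Theca and stromal markers (8 genes) summed to 0.959 to 1.38 CPM with spermidine, 0.477 to 1.23 CPM in aged and 1.01 to 2.26 CPM in young oocytes. Blood and immune markers (9 genes) summed to 0.810 to 1.34 CPM with spermidine. They reached 11.7 CPM in aged replicate 1, against 0.720 and 0.697 CPM in the other aged libraries, and 26.6 and 15.6 CPM in young replicates 1 and 3, against 1.08 CPM in young replicate 2. The deviations of gene levels correlated across 11995 genes with transcript length, most in aged replicate 1 (0.414). The correlation was positive in all aged libraries (0.414, 0.058 and 0.027) and negative in all young libraries (-0.204, -0.132 and -0.095). In the spermidine libraries it was 0.149, -0.086, -0.146 and -0.073. With GC content the correlation was lowest for young replicate 3 (-0.258) and highest for aged replicate 3 (0.379). Genes are not independent replicates, and the part of these trends and markers in the results was not tested beyond the alternatives named below. In such bulk samples fewer cells of a type and less RNA per cell cannot be told apart.

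The genes spanned a wide range of levels. Per kilobase of the longest coding transcript, Echs1 averaged 25.1 CPM over the 10 libraries, Cpt2 15.9, Hadhb 12.8, Acadm 11.0 and Hadha 6.42. Acadl followed with 2.36 CPM per kilobase, Acadvl with 0.793, Decr1 with 0.282, Cpt1a with 0.0451 and Acads with 0.0142. The ranges over libraries of Echs1 (19.1 to 34.6) and Cpt2 (9.60 to 21.9) overlapped, as did those of Cpt2, Hadhb (9.69 to 15.4) and Acadm (7.98 to 14.2), and of Acadm and Hadha (4.51 to 8.83). From Hadha down to Cpt1a each range lay wholly below the one before it, and those of Cpt1a (0.0103 to 0.101) and Acads (0 to 0.0433) overlapped. Among 12315 tested genes, Echs1 and Cpt2 lay at percentiles 79.7 and 79.2 of mean CPM, and Decr1 at percentile 14.2.

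**Figure D1:**
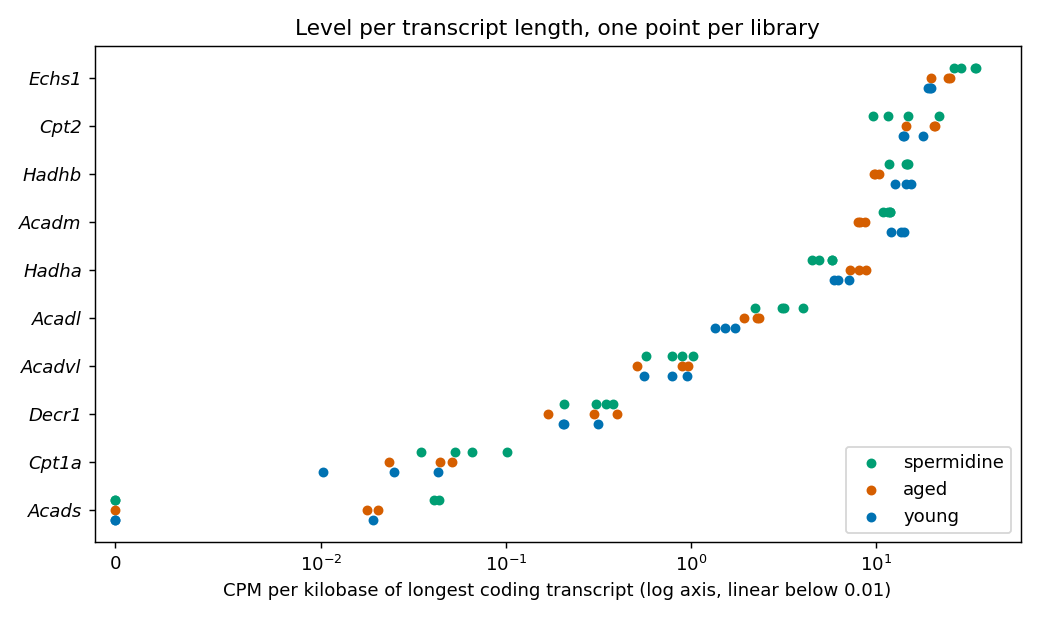
Level of each gene in CPM per kilobase of its longest coding transcript (horizontal, logarithmic and linear below 0.01), with 1 point per library coloured by group. Echs1, Cpt2, Hadhb, Acadm and Hadha stand above 4 CPM per kilobase in every library, while Cpt1a and Acads stand near 0.

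Cpt1a, the liver-type isoform that sets the pace of fatty acid entry, was near the limit of detection. Its counts were 5, 12, 7 and 6 in the spermidine libraries, 3, 5 and 6 in the aged libraries and 4, 3 and 1 in the young libraries, which is at most 0.435 CPM. A total of 3 counts corresponds to 0.0902 to 0.138 CPM in a library, so young replicate 3 lay below that floor. Spermidine replicate 2, the highest library, stood at 0.435 CPM, where the floor was 0.109 CPM. The gene was not tested. The other CPT1 genes did not stand at a high level either: Cpt1c, a brain-enriched isoform of the endoplasmic reticulum, ranged from 0.391 to 1.01 CPM, and Cpt1b, the muscle isoform, had 3 counts over all 10 libraries.

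Cpt2, which completes the shuttle on the inner membrane, was by contrast abundant. It stood at 22.8, 27.3, 35.3 and 51.9 CPM in the spermidine libraries, 34.2, 49.4 and 48.5 CPM in the aged libraries and 32.9, 42.2 and 33.5 CPM in the young libraries. The groups overlapped in each comparison, and the spermidine libraries alone spanned more than the range of all others. The log2 fold change was 0.28 (SE 0.27) for aged minus young and -0.36 (SE 0.25) for spermidine minus aged, with edgeR adjusted p = 0.475 and 0.403. Their intervals ran from -0.30 to 0.86 and from -0.90 to 0.18, which leaves room for a change in either direction. Slc25a20, the carrier between both enzymes, averaged 2.51 ± 0.467 CPM with spermidine (SD, n = 4), 3.03 ± 0.503 CPM in aged oocytes and 3.24 ± 0.172 CPM in young oocytes (SD, n = 3 each) and passed in no comparison, with adjusted p from 0.338 to 0.766.

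**Figure D2:**
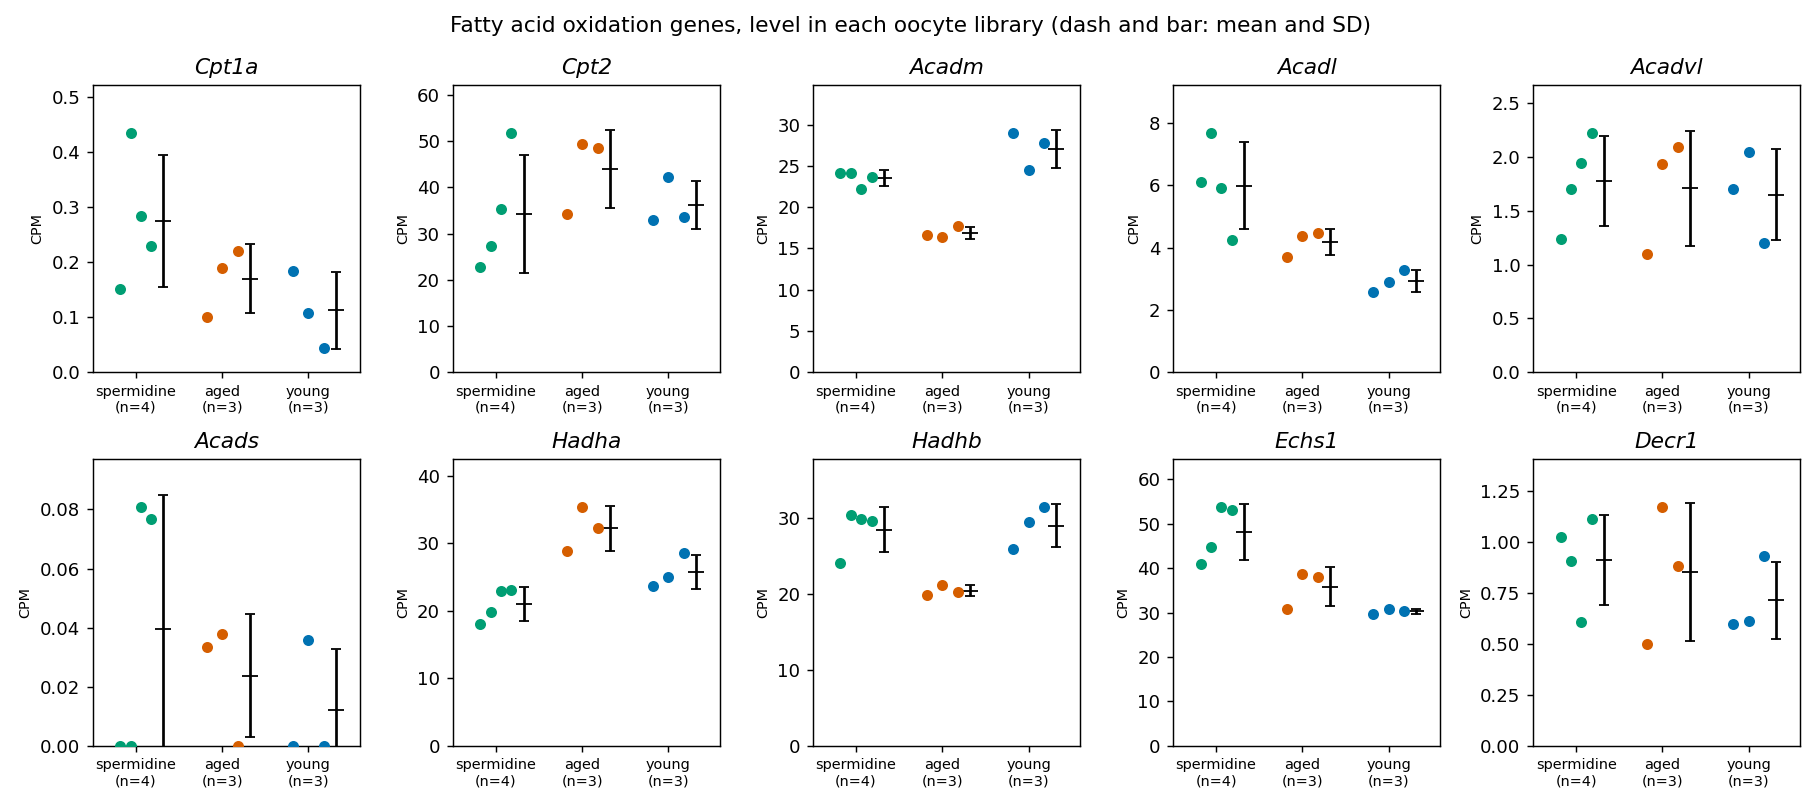
Level in CPM of the 10 genes in each library (points) with the mean and SD of each group (dash and bar). For Acadm and Hadhb the 3 aged libraries lie below all spermidine and all young libraries, for Hadha they lie above them, and Echs1 is highest in the 4 spermidine libraries.

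Acadm encodes the medium-chain acyl-CoA dehydrogenase and was lowest in aged oocytes. It stood at 24.1, 24.2, 22.2 and 23.6 CPM in the spermidine libraries, 16.6, 16.3 and 17.7 CPM in the aged libraries and 29.0, 24.6 and 27.8 CPM in the young libraries. No library of a group reached the range of another group. In aged against young oocytes it fell by 0.68 on the log2 scale (SE 0.14, edgeR adjusted p = 0.00683), and its level dropped by 37.7%. This call held whichever library was left out, with values from -0.75 to -0.66, and with correction for transcript length and GC content (-0.50, adjusted p = 0.0287), and it was lost when libraries were scaled by their totals alone (-0.54, adjusted p = 0.0545). With spermidine it was 39.3% above aged oocytes, a log2 difference of 0.48 (SE 0.13) that did not pass (adjusted p = 0.0518). It passed with DESeq2 (0.47, adjusted p = 0.00350) and with only genes of at least 10 CPM in 3 libraries (0.49, adjusted p = 0.0340). The authors' deposited table gives 0.46 and a q-value of 0.0242 for the same comparison. Against young oocytes the spermidine value was -0.20 (SE 0.13, adjusted p = 0.397, interval -0.48 to 0.07).

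Acadl, the long-chain dehydrogenase gene, took another order. It stood at 6.11, 7.69, 5.91 and 4.26 CPM in the spermidine libraries, 3.70, 4.36 and 4.48 CPM in the aged libraries and 2.58, 2.91 and 3.29 CPM in the young libraries. Spermidine and aged libraries overlapped, and both groups lay wholly above the young libraries. In spermidine against young oocytes Acadl rose by 1.03 (SE 0.22, adjusted p = 0.0155), about a doubling (105% more). The call was lost without spermidine replicate 2 or any 1 of the 3 young libraries, where the adjusted p lay between 0.0545 and 0.108 and the value between 0.85 and 1.07. Aged minus young was 0.51 (SE 0.23, adjusted p = 0.134) and spermidine minus aged 0.52 (SE 0.21, adjusted p = 0.154), of which the aged minus young difference passed with length and GC correction (0.77, adjusted p = 0.0273).

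The remaining dehydrogenase genes were low. Acadvl, for very long chains, averaged 1.78 ± 0.420 CPM with spermidine (SD, n = 4), 1.71 ± 0.532 CPM in aged oocytes and 1.65 ± 0.426 CPM in young oocytes (SD, n = 3 each). Its 3 log2 differences lay between 0.04 and 0.09, with adjusted p of at least 0.888, and the widest interval ran from -0.65 to 0.72. In the annotation 976 of its exon bases also belong to Dvl2 on the opposite strand, which had 0.384 to 1.07 CPM, and since strand use is not given, reads of the overlap cannot be told apart. Acads, for short chains, had 0, 0, 2 and 2 counts with spermidine, 1, 1 and 0 in aged and 0, 1 and 0 in young oocytes. That is below the 3-count floor in every library, so no fold is given.

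The values of the trifunctional protein genes lay on opposite sides of both other groups in aged oocytes. Hadha, whose product holds the hydratase and dehydrogenase activities, stood at 18.1, 19.8, 23.0 and 23.1 CPM in the spermidine libraries, 28.9, 35.5 and 32.3 CPM in the aged libraries and 23.6, 25.0 and 28.5 CPM in the young libraries. Hadhb, whose product is the thiolase, stood at 24.0, 30.4, 29.8 and 29.5 CPM in the spermidine libraries, 19.9, 21.2 and 20.2 CPM in the aged libraries and 25.9, 29.5 and 31.5 CPM in the young libraries. Aged oocytes thus held the highest values of Hadha and the lowest values of Hadhb, with no overlap with either other group.

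In aged against young oocytes Hadhb fell by 0.51 on the log2 scale (SE 0.15, edgeR adjusted p = 0.0341), while Hadha had a difference of 0.33 (SE 0.16, adjusted p = 0.158, interval -0.01 to 0.67). The call of Hadhb was lost without aged replicate 2 or 3 or any 1 of the young libraries (-0.61 to -0.49, adjusted p = 0.0551 to 0.0960), with totals alone (-0.37, adjusted p = 0.116), without a filter on low counts (-0.49, adjusted p = 0.0692) and with length and GC correction (-0.28, adjusted p = 0.146). In spermidine against aged oocytes Hadha fell by 0.62 (SE 0.15, adjusted p = 0.0367), while Hadhb had a difference of 0.48 (SE 0.14, adjusted p = 0.0654). The call of Hadha was lost without spermidine replicate 1, 2 or 3, aged replicate 2 or 3 or any 1 of the young libraries (-0.66 to -0.55, adjusted p = 0.0509 to 0.129), with totals alone (-0.58, adjusted p = 0.0530) and with only both groups in the fit (-0.61, adjusted p = 0.0902), and held with length and GC correction (-0.49, adjusted p = 0.0437). That of Hadhb was gained with DESeq2 (0.47, adjusted p = 0.0131), under the stricter filter (0.49, adjusted p = 0.0434), without spermidine replicate 1 (0.55, adjusted p = 0.0469) and when spermidine replicate 1 and aged replicate 1 were both left out (0.56, adjusted p = 0.0393). The authors' deposited table has q-values of 0.0120 for Hadha and 0.0689 for Hadhb for spermidine over aged. Spermidine minus young was -0.29 for Hadha (SE 0.15, adjusted p = 0.292) and -0.03 for Hadhb (SE 0.14, adjusted p = 0.934), with intervals from -0.61 to 0.03 and from -0.32 to 0.27.

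The ratio of Hadha to Hadhb counts, which does not depend on how libraries are scaled, sums this up for each library. It was 0.753, 0.650, 0.772 and 0.783 with spermidine, 1.45, 1.67 and 1.60 in aged oocytes and 0.911, 0.847 and 0.905 in young oocytes. The 3 groups did not overlap. Among the aged libraries the correlations with transcript length and GC content were 0.414 and -0.163 in replicate 1, 0.058 and 0.259 in replicate 2, and 0.027 and 0.379 in replicate 3. In young replicates 1, 2 and 3 they were -0.204 and -0.108, -0.132 and 0.115, and -0.095 and -0.258. The length correlation was thus positive in all aged and negative in all young libraries. With spermidine it was 0.149, -0.086, -0.146 and -0.073. The mean log2 ratio was 0.83 higher in aged than in young oocytes and 1.09 lower with spermidine than in aged oocytes (-1.09), a factor of 1.77 and 0.469. With 1 library left out these differences ran from 0.78 to 0.88 and from -1.15 to -1.03. With length and GC correction, an alternative chosen after seeing the data, they were 0.44 and -0.81. The annotated transcript of Hadha is 4017 bases long and 51.3% GC, against 2048 bases and 45.4% for Hadhb. The ratio is given as values without a test. The smallest exact two-sided permutation p is 0.1 for 3 libraries against 3 and 0.0571 for 4 against 3. Hadha shares 75 exon bases with Garem2 on the other strand, which had at most 0.0445 CPM.

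**Figure D3:**
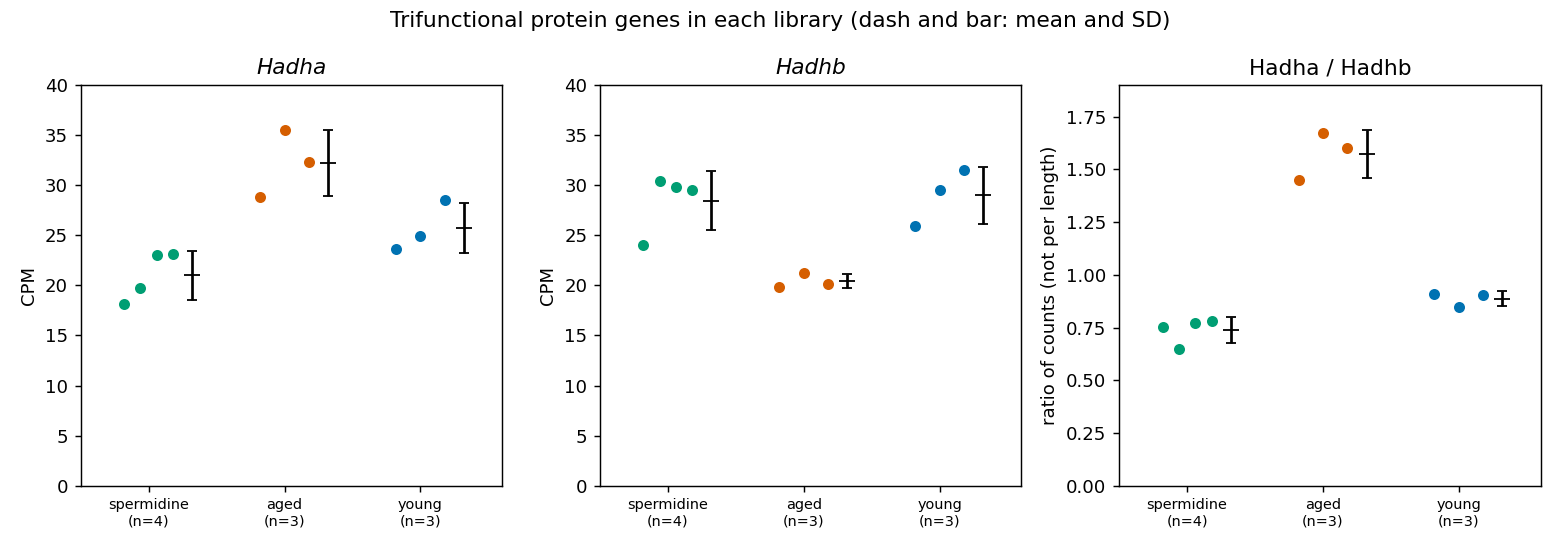
Hadha (left) and Hadhb (middle) in CPM and the ratio of their counts (right, not divided by length) in each library, with the mean and SD of each group. The aged libraries have ratios of 1.45 to 1.67, the spermidine libraries 0.650 to 0.783 and the young libraries 0.847 to 0.911.

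Echs1 encodes the short-chain enoyl-CoA hydratase, which also serves valine breakdown, and was highest with spermidine. It stood at 40.9, 44.7, 53.9 and 53.0 CPM in the spermidine libraries, 30.7, 38.7 and 37.9 CPM in the aged libraries and 29.7, 30.8 and 30.4 CPM in the young libraries. All spermidine libraries lay above all others, and the aged libraries overlapped with the young ones. In spermidine against young oocytes it rose by 0.67 (SE 0.15, adjusted p = 0.0202), or 58.8%. The call was lost without spermidine replicate 2 or 3 or any 1 of the young libraries (0.61 to 0.68, adjusted p = 0.0529 to 0.133). Spermidine minus aged was 0.43 (SE 0.14, adjusted p = 0.0993) and aged minus young 0.24 (SE 0.15, adjusted p = 0.283), of which the aged minus young difference passed with length and GC correction (0.47, adjusted p = 0.0183).

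Decr1, whose dienoyl-CoA reductase prepares unsaturated chains, had 34, 25, 15 and 29 counts with spermidine, 15, 31 and 24 in aged and 13, 17 and 21 in young oocytes. These are 0.501 to 1.18 CPM with wide overlap. Its log2 differences of 0.25 for aged minus young (SE 0.37), 0.11 for spermidine minus aged (SE 0.34) and 0.36 for spermidine minus young (SE 0.35) did not pass, with adjusted p from 0.607 to 0.868. The widest interval, for aged minus young, reached from -0.56 to 1.06, and so included both no change and a doubling.

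Counted over the genes, the aged against young comparison called 2 of the 8 tested members lower and 0 higher, where 17.8% of 12315 genes were called, 8.06% as lower and 9.71% as higher. With length and GC correction the members called were 2 higher (Acadl and Echs1) and 1 lower (Acadm). At an unadjusted p under 0.05 there were 3 members of 8, where 34.7% of all tested genes stood. Spermidine against aged called 1 of 8 lower and 0 higher, where 4.86% of genes were called, 2.44% as lower and 2.42% as higher, with 5 of 8 members below 0.05 before adjustment, against 24.2% of all genes. DESeq2 called 1 lower and 2 higher there. Spermidine against young called 2 of 8 higher and 0 lower, where 5.36% of genes were called, 3.44% as higher and 1.92% as lower, with 2 of 8 members below 0.05 before adjustment, against 20% of all genes. The groups did not overlap for 4 of 8 members in each comparison, where the share over all genes was 40% for aged and young (21.1% higher, 18.8% lower), 19.9% for spermidine and aged (11.4% higher, 8.49% lower) and 21% for spermidine and young (12.1% higher, 8.92% lower). With 8 genes these shares are coarse, and 2 members without enough reads are not in them. The median log2 difference of the tested members was 0.25, 0.27 and 0.03 in the 3 comparisons, against 0.10, -0.03 and 0.04 over all tested genes. The aged libraries enter both of the first 2 comparisons, so opposite signs there are not independent.

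**Figure D4:**
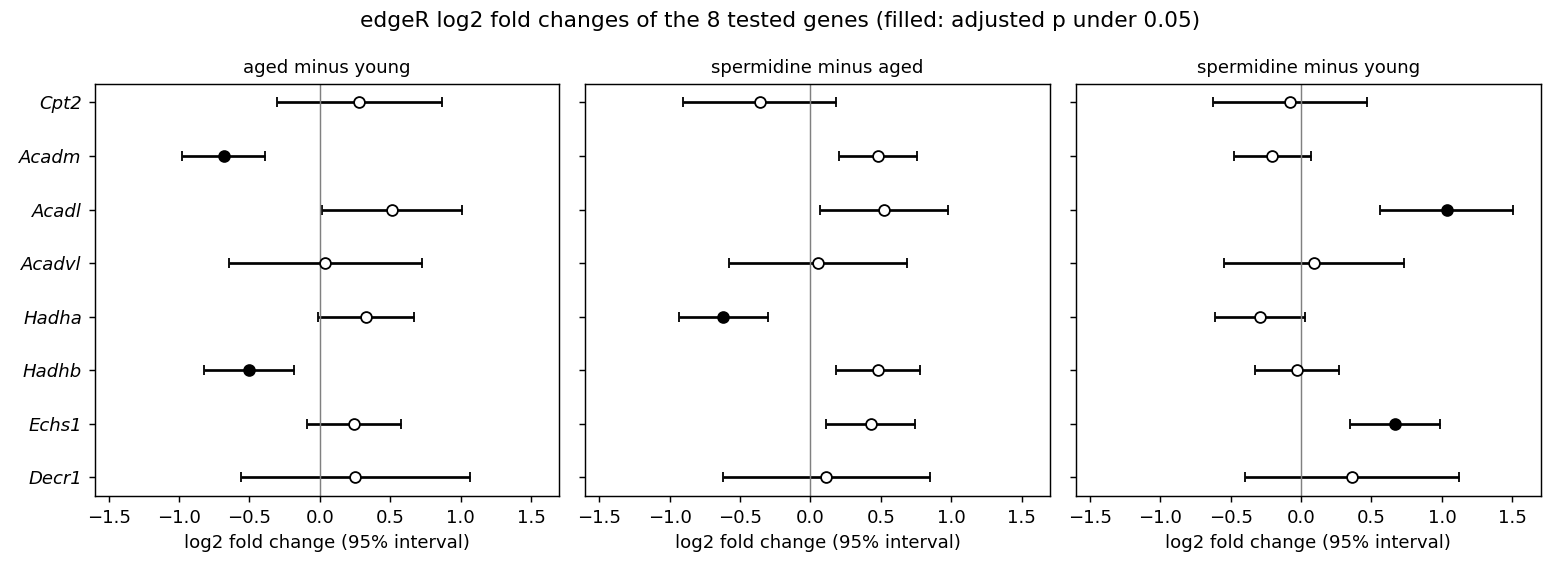
Log2 fold changes (points) with 95% intervals for the 8 tested genes in the 3 comparisons, filled where the edgeR adjusted p was under 0.05. Acadm (-0.68) and Hadhb (-0.51) are filled for aged minus young, Hadha (-0.62) for spermidine minus aged, and Acadl (1.03) and Echs1 (0.67) for spermidine minus young.

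Around these enzymes, the pathway list held 72 further genes in the table, of which 60 were tested. In aged against young oocytes 10 were higher and 4 lower, where 9.71% of all tested genes were called higher and 8.06% lower. The counts by list that follow stand against the same shares and rest on few genes each. Higher were Slc22a5, the carnitine transporter (0.88, SE 0.20, adjusted p = 0.0123), Acsl1, an acyl-CoA synthetase (0.68, SE 0.17, adjusted p = 0.0180), and Crat, the carnitine acetyltransferase (0.86, SE 0.26, adjusted p = 0.0393), as 3 of 10 genes of shuttle and activation. Of 15 genes listed as other mitochondrial beta oxidation, which include thioesterase genes, 1 rose and 3 fell. Hadh, the hydroxyacyl-CoA dehydrogenase for shorter chains, averaged 2.59 ± 0.0620 CPM in aged and 1.15 ± 0.142 CPM in young oocytes (SD, n = 3 each), a rise of 1.17 (SE 0.27, adjusted p = 0.0143). Eci1, an enoyl-CoA isomerase, fell by 0.87 (SE 0.25, adjusted p = 0.0317), the thioesterase gene Acot13 by 0.62 (SE 0.18, adjusted p = 0.0382) and Acad9, which also assembles respiratory complex I, by 0.63 (SE 0.20, adjusted p = 0.0459). The 4 genes of electron transfer, Etfa, Etfb, Etfdh and Etfrf1, had 0 calls by edgeR in all 3 comparisons, as had 4 genes of propionyl-CoA disposal. Before adjustment, p was under 0.05 for 0, 2 and 1 genes of electron transfer (aged minus young, spermidine minus aged, spermidine minus young) and for 1, 1 and 2 genes of propionyl-CoA disposal. Of 12 tested genes of the peroxisomal pathway 4 rose and 0 fell: the oxidase gene Acox3 (0.97, SE 0.19, adjusted p = 0.00609), the import receptor gene Pex5 (1.04, SE 0.23, adjusted p = 0.0101), the multifunctional enzyme gene Hsd17b4 (0.70, SE 0.19, adjusted p = 0.0237) and the transporter gene Abcd3 (0.51, SE 0.15, adjusted p = 0.0409). Of these, Acox3 kept its call under all 20 alternatives. The calls of Slc22a5, Hadh and Pex5 were lost without 1 young library (adjusted p = 0.0524 without young replicate 3, and 0.0624 and 0.0620 without young replicate 1), and those of Acsl1, Crat, Eci1, Acot13, Acad9, Hsd17b4 and Abcd3 without any 1 of 3 to 8 libraries, young replicate 1 in each (adjusted p = 0.0512 to 0.154). With length and GC correction Acot13 had a difference of -0.08 (adjusted p = 0.705), Crat of 0.59 (adjusted p = 0.123) and Eci1 of -0.63 (adjusted p = 0.0876). Acot13 kept its call in 12 of 20 alternatives, Crat in 6 of 19, Eci1 in 11 of 19, Abcd3 in 7 of 20 and Acad9 in 10 of 19. Acsl1 kept its call in 16 of 20 and Hsd17b4 in 17 of 20.

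The largest difference among the listed genes was that of 1 gene, Pnpla2, in the list of lipid droplet release. Of 4 tested genes of that list, 1 was called higher and 0 lower in aged against young oocytes. The shares over all tested genes were 9.71% and 8.06%. Of those 4 genes, 3 had log2 differences above 0 and 1 below 0. Pnpla2 encodes the adipose triglyceride lipase. It stood at 3.37, 2.07, 3.04 and 4.26 CPM in the spermidine libraries, 7.01, 7.50 and 8.62 CPM in the aged libraries and 2.26, 2.66 and 2.14 CPM in the young libraries. The aged libraries lay above all others. It rose by 1.71 (SE 0.25, adjusted p = 0.00133) in aged against young oocytes and fell by 1.28 (SE 0.22, adjusted p = 0.0121) in spermidine against aged oocytes, and both calls held under all 19 alternatives in which it was tested. With spermidine against young oocytes it had a difference of 0.43 (SE 0.24, adjusted p = 0.336). Plin2, a droplet coat protein gene, was the 1 gene of this list called in spermidine against young oocytes (1.01, SE 0.26, adjusted p = 0.0441), a call lost without any 1 of 8 libraries (adjusted p = 0.0580 to 0.226). Over all 60 pathway genes spermidine against aged called 2 higher and 1 lower, where 2.42% of all genes were called higher and 2.44% lower, the higher ones being Acot13 (0.68, SE 0.17, adjusted p = 0.0473) and Prkaa2, and spermidine against young called 4 higher and 0 lower, where 3.44% were called higher and 1.92% lower. These 4 were Plin2, the acyl-CoA synthetase gene Acsl4 (0.82, SE 0.20, adjusted p = 0.0312), Hadh (1.01, SE 0.26, adjusted p = 0.0447) and Abcd3 (0.56, SE 0.15, adjusted p = 0.0454). The calls of Acot13, Acsl4, Hadh and Abcd3 in these comparisons were lost without any 1 of 6 to 8 libraries (adjusted p = 0.0504 to 0.203). With length and GC correction Acot13 had a spermidine minus aged difference of 0.31 (adjusted p = 0.121), and its call there held in 7 of 20 alternatives.

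**Figure D5:**
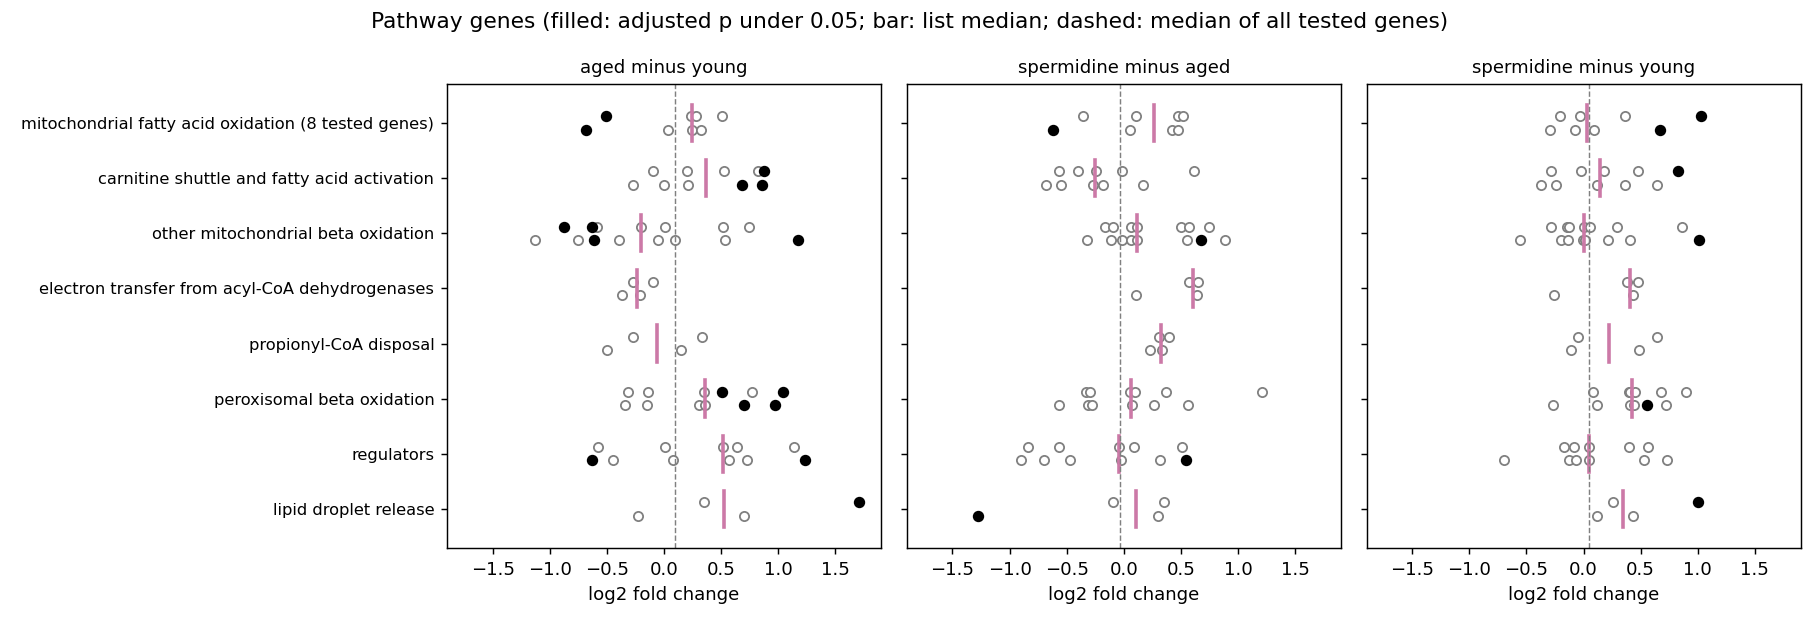
Log2 fold changes of the 8 tested members and of 60 further pathway genes by list (rows) in the 3 comparisons, filled where the edgeR adjusted p was under 0.05, with the list median (bar) and the median of all tested genes (dashed line). Pnpla2 lies at 1.71 for aged minus young and at -1.28 for spermidine minus aged in the row of lipid droplet release.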

How the data were processed

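RNA sequencing libraries were made by SMART-seq2 from oligo dT priming, per the labels' protocols, so levels are those of polyadenylated RNA. Tools listed, with no role, in the submitters' processing notes are RSEM 1.3.1, Bowtie2 2.3.4.3 and DESeq2 1.4.5, and the build listed is mm9. The authors deposited expected counts per gene and library, of which 15.9% to 16.7% were not whole, with their own log2 fold changes, p-values and q-values. The other genes of the pathway and the cell markers were fixed lists, and 1 pathway gene, Hsd17b8, was not analysed here. Members and lists were chosen with earlier results of these data known.

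Expected counts were rounded. With R 4.3.3 and edgeR 4.0.16, 12315 genes kept by filterByExpr entered 1 robust quasi-likelihood fit of all 10 libraries, with TMM factors and Benjamini-Hochberg adjustment over all genes at a threshold of 0.05. Standard errors follow from the F statistic, and intervals are at 95%. Floors of 3 counts allow for counting error alone, as the labels name no molecular identifiers. Named genes were all members and up to 4 genes of smallest p that passed per list and comparison. Cpt1b, Cpt1c, Slc25a20, Ppara and the electron transfer genes fall outside this rule and were named after their values were seen. Alternatives were RLE factors, library totals, DESeq2 1.42.0, no filter, at least 10 CPM in 3 libraries and both groups alone. Further ones were a replicate block, no robust fit, length and GC correction and libraries left out. Length and GC content were those of the longest coding GENCODE M21 transcript, matched by Entrez gene ID for 97.4% of tested genes. Replicates of a group differed by more than counting noise, with a chi-square per degree of freedom of at least 9.99. Plots used matplotlib 3.10.9 under Python 3.11.15.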

Additional observations from a re-analysis of the deposited data

Results flagged for a closer look

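Hadhb in spermidine replicate 1 was 24 CPM, apart from the other 3 spermidine libraries at 29.5 to 30.4 CPM. Its gap to the nearest of them was 0.866 of the range of the group, above the 95% critical value of Dixon's test for 4 samples. Such a gap arises by chance in about 1 of 20 groups, and 11 quantities were looked at. The same library had the largest TMM factor, 1.23, and a correlation of gene level deviations with transcript length of 0.149, against -0.146 to -0.073 in the other spermidine libraries. Before scaling, its Hadhb count was 799, within the 838, 736 and 770 counts of spermidine replicates 2, 3 and 4. Library totals were 27111503 for replicate 1 and 26836307, 25992714 and 26240500 for those 3. The gap is thus one of TMM-scaled values, and the unscaled count was not apart. Whether the length correlation bears on Hadhb was not tested.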

How the results depend on the processing

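Members called in aged against young oocytes numbered 2, and 0 with library totals, 1 without a filter, 3 with length and GC correction (2 higher and 1 lower, against 0 higher and 2 lower) and 1 to 2 with a library left out. In spermidine against aged oocytes the 1 call became 0 with library totals and with both groups alone, 3 with DESeq2 and under the stricter filter, 2 with the replicate block, 2 with spermidine replicate 1 and aged replicate 1 both left out, and 0 to 1 with a library left out. In spermidine against young oocytes the 2 calls became 1 under the stricter filter, where fewer genes are tested, and 0 to 2 with a library left out. The log2 ratio of Hadha to Hadhb moved from 0.83 to 0.44 for aged minus young and from -1.09 to -0.81 for spermidine minus aged with length and GC correction. It kept its sign and ran from 0.78 to 0.88, from -1.15 to -1.03 and from -0.30 to -0.21 (spermidine minus young) with a library left out. The cause of these moves was not tested.

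Same-numbered libraries did not deviate together throughout (correlations of 0.167, 0.168 and -0.275 for aged and young replicates, and 0.408, -0.091 and 0.059 for spermidine and aged ones), so the numbers were not taken to pair samples. With the replicate block the members' counts were 2, 2 and 2, the added one being Cpt2 for spermidine minus aged (-0.63, adjusted p = 0.0472).

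Over all genes the counts of 2189, 598 and 660 were of 12315 tested genes. They ran from 827 to 2362, 99 to 1127 and 283 to 874 with a library left out. Under the stricter filter they were 1179, 427 and 273, of only 5784 tested genes. They were 2793, 1355 and 1073 with DESeq2 and 1641, 259 and 731 with library totals. With both groups alone they were 1962, 124 and 698, and with the replicate block 2318, 998 and 631. For aged minus young DESeq2 tested 13076 genes and the fit of both groups alone 11885. Library totals moved the median of all genes for aged minus young from 0.10 to 0.24 and for spermidine minus young from 0.04 to 0.23, with 1236 higher and 405 lower and 605 higher and 126 lower, against 1196 and 993 and 424 and 236. DESeq2 gave 551 higher and 522 lower for the last. The further pathway genes called numbered 14, 3 and 4, and 4 to 16, 1 to 6 and 0 to 4 with a library left out. For aged minus young they were 5 of 22 tested under the stricter filter, against 14 of 60 in the main fit. For spermidine minus aged they were 1 with library totals, both groups alone or no filter, 10 with DESeq2 and 5 without aged replicate 1 and spermidine replicate 1. For spermidine minus young they were 7 with DESeq2, with library totals, with length and GC correction and without those 2 libraries, and 1 with RLE factors and with the replicate block.

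Of the alternatives run, none turned the sign of a called member or of a called further pathway gene. Signs of the other called genes were not compared. Depth limits what can be said of Cpt1a and Acads, and the intervals of Acadvl and Decr1 span changes in both directions.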

Other observations

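Regulators form the remaining list. Of 11 tested regulators 1 rose and 1 fell in aged against young oocytes, where 17.8% of all genes were called. In spermidine against aged oocytes 1 rose, where 2.42% of all genes were called higher, and 0 passed in spermidine against young oocytes. Before adjustment, the edgeR p was under 0.05 for 6, 6 and 2 regulators (aged minus young, spermidine minus aged, spermidine minus young). The shares over all tested genes were 34.7%, 24.2% and 20%. Prkaa2, a catalytic subunit of the energy sensor AMPK, averaged 29.8 ± 2.96 CPM with spermidine (SD, n = 4), 20.5 ± 1.84 CPM in aged oocytes and 31.6 ± 1.97 CPM in young oocytes (SD, n = 3 each). It fell by 0.63 (SE 0.15, edgeR adjusted p = 0.0138) in aged against young oocytes and rose by 0.54 (SE 0.14, adjusted p = 0.0450) in spermidine against aged oocytes. The fall held with any library left out and was lost with length and GC correction (-0.63, adjusted p = 0.0992). The rise held in 6 of 20 alternatives. It was lost with that correction (adjusted p = 0.206), with the replicate block (0.0614), library totals (0.0569), no filter (0.0710) and both groups alone (0.108), and without any 1 of 9 libraries (adjusted p = 0.0522 to 0.130), spermidine replicate 1 being the exception. Acaca, an acetyl-CoA carboxylase whose product malonyl-CoA inhibits CPT1, rose by 1.24 (SE 0.37, adjusted p = 0.0363) in aged against young oocytes, at 1.44 ± 0.636 CPM in aged and 0.614 ± 0.0480 CPM in young oocytes (SD, n = 3 each). That call was lost without spermidine replicate 2, aged replicate 1 or any 1 of the young libraries (0.77 to 1.25, adjusted p = 0.0560 to 0.152). Ppara, the nuclear receptor that induces fatty acid oxidation genes in liver, averaged 0.990 ± 0.313 CPM with spermidine (SD, n = 4), 1.62 ± 0.447 CPM in aged oocytes and 1.61 ± 0.330 CPM in young oocytes (SD, n = 3 each) and did not pass in any comparison. The spermidine libraries (0.575 to 1.32 CPM) lay below all aged (1.36 to 2.14 CPM) and all young libraries (1.34 to 1.98 CPM). Over all tested genes 8.49% and 8.92% were lower without overlap in these comparisons. The unadjusted edgeR p was 0.0364 against aged and 0.0399 against young oocytes. Ppara was named after its values were seen.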
